A study of Mus musculus with 2 samples.

Results

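The Egr and Nr4a genes encode transcription factors that T cells switch on soon after antigen receptor engagement, and their levels were compared between Tc9 and Tc1 cells. The 6 genes Egr1, Egr2, Egr3, Nr4a1, Nr4a2 and Nr4a3 were found by gene symbol in the platform annotation, among 19505 annotated genes. They had 8 probe sets of 19572 annotated ones, 3 of them for Egr3. The members were chosen by family with the Tc9 minus Tc1 differences of these arrays known, so those differences are a description and no test is attached to them.

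EGR proteins are zinc finger factors that bind GC-rich sites. In T cells the ERK kinase pathway and serum response factor (SRF) drive Egr1 early after stimulation, NFAT acts on Egr2 and Egr3, and EGR2 and EGR3 are known for restraining T cell activation. The NR4A proteins, Nur77 (Nr4a1), Nurr1 (Nr4a2) and Nor1 (Nr4a3), are orphan nuclear receptors induced through calcium and CREB signals, are used as reporters of receptor signalling, and are known for restraining effector function and for roles in exhausted and regulatory T cells.

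Mouse CD8+ T cells from spleen and lymph node were activated with plate-bound anti-CD3 and soluble anti-CD28 for 3 days, then moved to medium with rhIL-2 at 10 ng/mL for 2 days, and RNA was taken at day 5. Tc9 cells, which make interleukin 9, were polarized with IL-4 at 10 ng/mL, TGF-β at 1 ng/mL and an anti-IFN-γ antibody at 20 µg/mL. Tc1 cells, which make interferon gamma, were polarized with rhIL-2 at 10 ng/mL. The labels name no strain, age, genotype or further receptor stimulation during those last 2 days. There was 1 Tc9 array and 1 Tc1 array, so replicate error is unknown for every difference below, which holds for these arrays alone. The source name of the array titled Tc9 reads Tc1, and its title and description were followed.

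The cytokine gene Il9 had a log2 signal of 8.45 on the Tc9 array and 4.82 on the Tc1 array, at least 4.07-fold higher. Tbx21, the type 1 factor T-bet, had 6.50 on the Tc9 array and 9.56 on the Tc1 array, Ifng had 7.57 and 9.28, and the related factor Eomes had 8.15 and 9.21 in the same order. The T cell genes Cd8a (11.93 on Tc9, 12.19 on Tc1), Cd8b1 (11.52 on Tc9, 11.96 on Tc1) and Cd3e (12.80 on Tc9, 12.92 on Tc1) were bright on both arrays, and Cd4 had 8.74 on the Tc9 array and 9.33 on the Tc1 array. Genes were counted as detectable from a log2 signal of 6.43 on either array, the median of all gene values. Past the 2-fold limit, 2.62% of the 10147 detectable genes were higher in Tc9 cells and 2.79% were lower. When the arrays were centred on the median of all probe sets, every difference shifted by 0.11 on the log2 scale, and the share of higher genes among those past 2-fold became 59.0%, against 48.5% as deposited. Centring on positive control probe sets shifted differences the other way, by -0.15, and gave 34.0%. The 8 bacterial and phage spike-in probe sets, which do not come from the cells, differed by -0.05 to 0.46.

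Egr1, Egr2 and Egr3 had higher signals in Tc9 cells and the Nr4a genes lower ones. The 3 Egr genes differed by 0.64 to 1.93 on the log2 scale, with a median of 0.96, each gene being represented by its brighter probe set. That median is the value of the brightest Egr3 probe set, and the mean of the 3 Egr3 probe sets was lower, at 0.54. The 3 Nr4a genes differed by -1.65 to -0.95, with a median of -1.10. Past 2-fold were 1 gene higher (Egr2) and 2 genes lower (Nr4a2 and Nr4a3), together 3 of 6 beside 5.41% of all detectable genes, a contrast that was in view when the members were chosen. All 8 probe sets were above 6.43 on both arrays, and also above 7.16, the level that 95% of negative control values did not reach. In a bulk sample, a lower signal from fewer cells that express a gene and from less RNA per cell cannot be told apart.

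**Figure D1:**
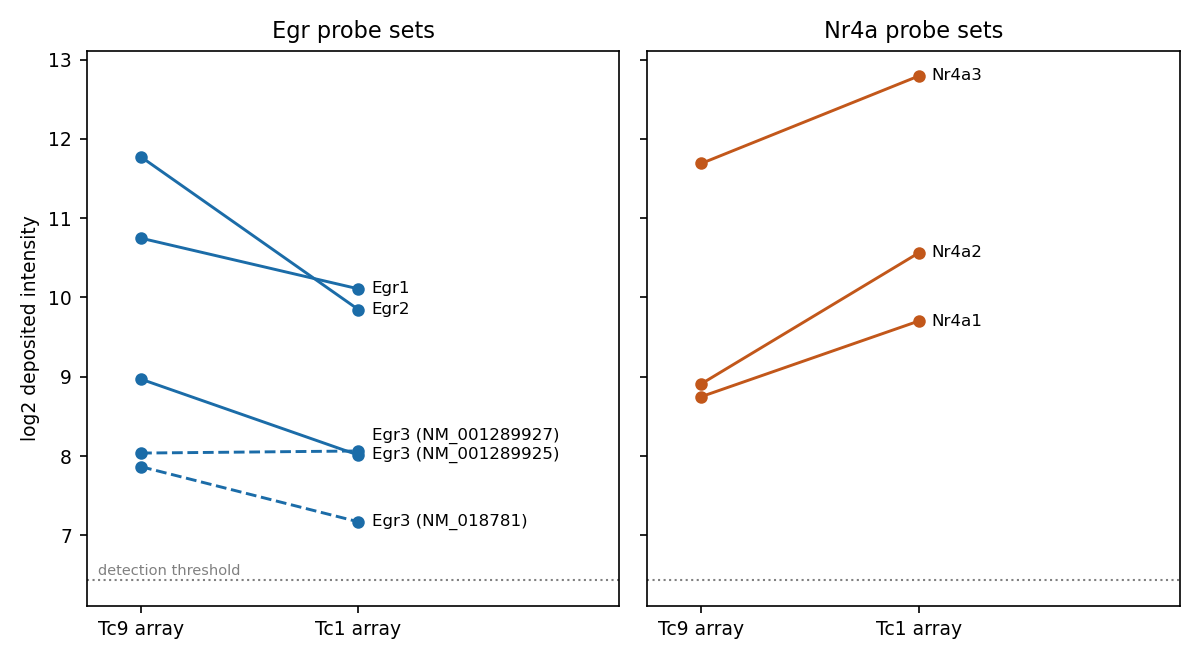
Log2 deposited intensity (vertical axis) of each Egr and Nr4a probe set on the Tc9 array (left points) and the Tc1 array (right points), 1 line per probe set, dashed for the 2 dimmer Egr3 probe sets; the dotted line is the detection threshold of 6.43. All lines but that of the NM_001289927 probe set of Egr3 fall toward Tc1 for Egr genes, and all rise toward Tc1 for Nr4a genes.

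Egr2 was the member with the largest difference in the deposited values, while centring on positive controls put it at 1.78 and Nr4a2 at -1.80. It encodes the zinc finger factor Krox-20, known in T cells for limiting activation and supporting anergy. Its intensity was 3499 on the Tc9 array and 921 on the Tc1 array, log2 signals of 11.77 and 9.85 in that order, a 3.80-fold higher value in Tc9 cells. It ranked 72nd from the top among the 10147 detectable genes. Of 1093 genes whose mean log2 signal lay within 0.5 of that of Egr2, 1.01% passed 2-fold upward and 0.183% had a more positive difference than Egr2.

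Egr1, the most widely studied early growth response factor, had an intensity of 1720 on the Tc9 array and 1104 on the Tc1 array. It was 1.56-fold higher in Tc9 cells, a log2 difference of 0.64, inside the 2-fold limit. Of 1384 genes of similar signal, 3.61% had a more positive difference. Egr1 thus stood nearer to the bulk of genes than Egr2.

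The 3 probe sets of Egr3, a factor that overlaps with EGR2 in restraining T cells, did not move alike. The brightest by mean signal, annotated to transcript NM_001289925, had an intensity of 501 on the Tc9 array and 258 on the Tc1 array, 1.94-fold higher in Tc9 cells. The probe set annotated to NM_018781 had 233 on the Tc9 array and 144 on the Tc1 array, 1.62-fold higher. The probe set annotated to NM_001289927 had 263 on the Tc9 array and 268 on the Tc1 array, a log2 difference of -0.03. Among genes of similar signal, 2.95%, 7.19% and 61.8% had a more positive difference than these probe sets, in the order given. A pair of the 3 was thus higher on the Tc9 array by under 2-fold and the other was nearly level. The platform identifiers mark the NM_001289925 and NM_001289927 probe sets as unmapped, but not the NM_018781 one. The probe sequences are not used here, so which exons each probe set reads is not known. The mean of the 3 gave a log2 difference of 0.54.

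The detectable Egr relatives and partners had smaller measured differences than Egr1, Egr2 and Egr3 by gene. Egr4, the fourth family member, had log2 signals of 7.05 on the Tc9 array and 7.27 on the Tc1 array. Its difference of -0.22 went in the direction opposite to those 3 genes, and its Tc9 value was under the negative control level of 7.16. Nab1 and Nab2 encode co-regulators that bind EGR proteins and mostly repress their activity, and NAB2 is itself induced by EGR factors. Nab1 had 9.69 on the Tc9 array and 9.26 on the Tc1 array, and Nab2 had 10.96 on the Tc9 array and 10.58 on the Tc1 array, 1.35-fold and 1.30-fold higher in Tc9 cells. Wt1, which encodes a related zinc finger protein, was below the detection threshold on both arrays. None of the 3 detectable genes of this group passed 2-fold, beside 5.41% of all detectable genes, a share at which 3 genes give few or none.

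Nr4a2 was the Nr4a gene with the largest difference. Its intensity was 481 on the Tc9 array and 1513 on the Tc1 array, log2 signals of 8.91 and 10.56 in that order, 3.14-fold lower in Tc9 cells. It ranked 107th from the bottom of the detectable genes, and 0.905% of 1988 genes of similar signal lay lower. Nurr1, its product, is known in the brain for dopamine neurons and in T cells beside the other NR4A factors.

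Nr4a3 was bright on both arrays, with an intensity of 3306 on the Tc9 array and 7102 on the Tc1 array. It was 2.15-fold lower in Tc9 cells, a log2 difference of -1.10, and became -0.99 when the arrays were centred on all probe sets. Few genes were as bright. Of the 270 with a similar signal, 95% had differences between -0.61 and 0.41, and 0.741% lay below Nr4a3. Egr2 and Nr4a2 also lay outside the central 95% of genes of their own signal. Egr1, Nr4a1 and every Egr3 probe set lay inside it.

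Nr4a1, whose product Nur77 is a common reporter of receptor signalling, had an intensity of 430 on the Tc9 array and 834 on the Tc1 array. It was 1.94-fold lower in Tc9 cells, a log2 difference of -0.95, and 2.79% of 2259 genes of similar signal lay lower. It passed 2-fold after quantile normalization, at -1.01, and after centring on positive controls, at -1.10. The 3 Nr4a genes thus shared a direction, with Nr4a1 and Nr4a3 on either side of the 2-fold limit.

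**Figure D2:**
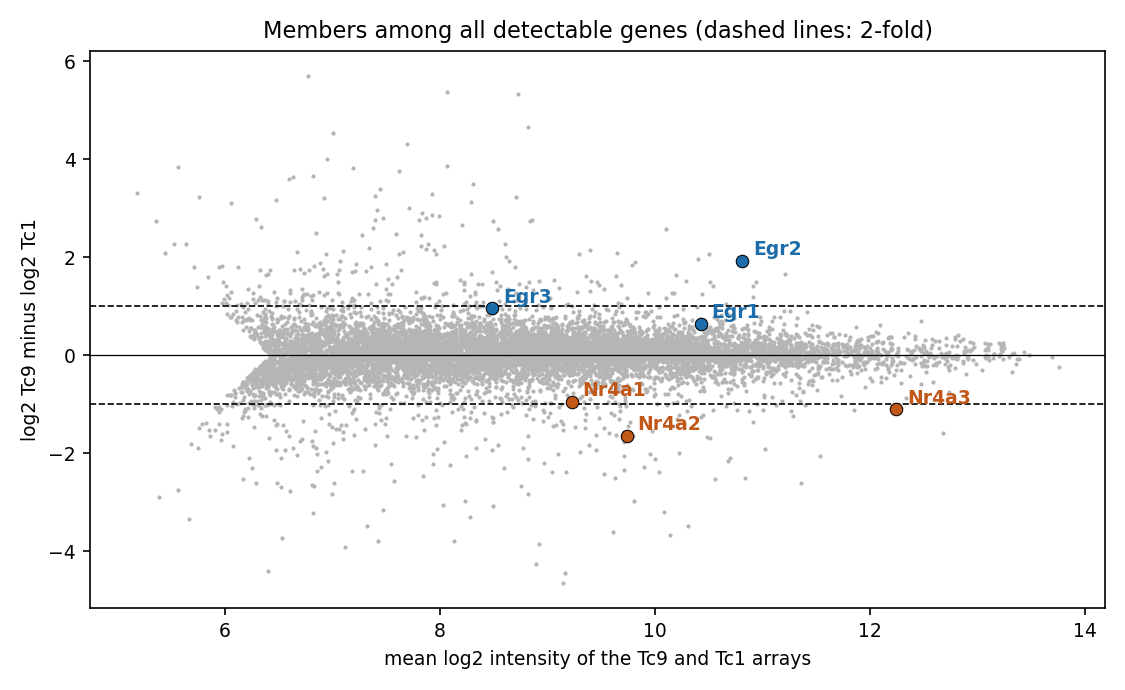
Log2 Tc9 minus log2 Tc1 (vertical axis) against the mean log2 intensity of the arrays (horizontal axis) for all 10147 detectable genes in grey, with the Egr genes in blue and the Nr4a genes in orange. Egr2 lies above the upper 2-fold line, Nr4a2 and Nr4a3 below the lower line, and Egr1, Egr3 and Nr4a1 inside the lines.

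Centring the arrays moved each member by the same amount, while quantile normalization and the offset moved members by unlike amounts. No scaling turned any of the 6 genes, but most could not have. The largest shift by centring was -0.15, against a smallest gene difference of 0.64 in size, and an offset keeps the sign. Over the alternatives that gave a difference, counting those that only changed the detection threshold or dim values and so left members as they were, Egr2 stayed between 1.78 and 2.04, Egr1 between 0.49 and 0.75, and Egr3 by gene between 0.54 and 1.07. Nr4a1 stayed between -1.10 and -0.84, Nr4a2 between -1.80 and -1.54, and Nr4a3 between -1.25 and -0.99. Only the NM_001289927 probe set of Egr3 changed sign, between -0.17 and 0.08. The genes whose side of the 2-fold limit depended on scaling were Egr3, Nr4a1 and Nr4a3.

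**Figure D3:**
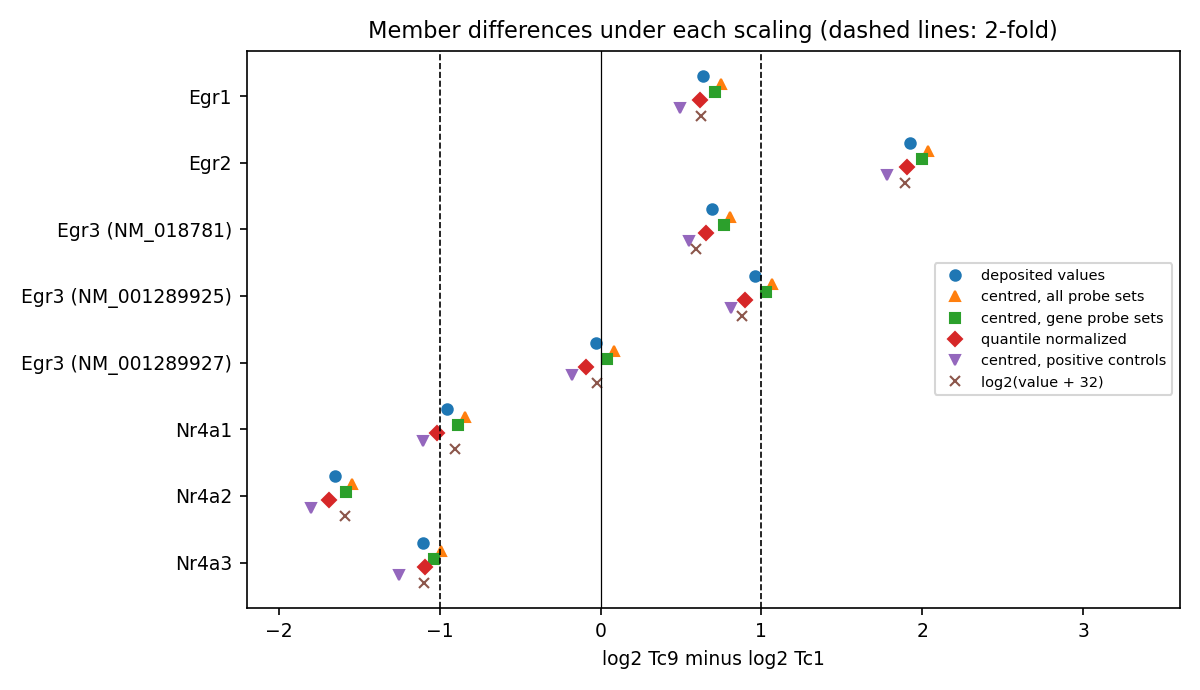
Log2 Tc9 minus log2 Tc1 (horizontal axis) of each member probe set under 6 scalings, 1 symbol each. Egr2 stays right of the upper 2-fold line and Nr4a2 left of the lower one under all 6, while symbols of the NM_001289925 probe set of Egr3, of Nr4a1 and of Nr4a3 fall on both sides of a line.

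The Nr4a genes moved together, so the 250 bases upstream of their RefSeq transcript starts are shown (RefSeq, GRCm38.p6). The windows are chr15:101266596-101266845 on the plus strand for Nr4a1, chr2:57124004-57124253 on the minus strand for Nr4a2 and chr4:48045055-48045304 on the plus strand for Nr4a3, each written 5′ to 3′ along its gene. Capitals mark TGACG or its reverse complement CGTCA, the short form of the cAMP response element (CRE) that CREB family factors bind.
Nr4a1: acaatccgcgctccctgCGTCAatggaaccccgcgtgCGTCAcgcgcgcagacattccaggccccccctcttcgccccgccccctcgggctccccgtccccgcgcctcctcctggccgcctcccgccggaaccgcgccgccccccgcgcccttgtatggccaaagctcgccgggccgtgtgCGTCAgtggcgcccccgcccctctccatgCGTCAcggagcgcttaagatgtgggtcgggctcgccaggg
Nr4a2: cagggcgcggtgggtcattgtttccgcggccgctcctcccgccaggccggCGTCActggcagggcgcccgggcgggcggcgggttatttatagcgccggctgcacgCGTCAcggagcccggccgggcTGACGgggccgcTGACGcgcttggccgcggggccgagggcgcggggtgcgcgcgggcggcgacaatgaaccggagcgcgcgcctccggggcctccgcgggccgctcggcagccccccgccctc
Nr4a3: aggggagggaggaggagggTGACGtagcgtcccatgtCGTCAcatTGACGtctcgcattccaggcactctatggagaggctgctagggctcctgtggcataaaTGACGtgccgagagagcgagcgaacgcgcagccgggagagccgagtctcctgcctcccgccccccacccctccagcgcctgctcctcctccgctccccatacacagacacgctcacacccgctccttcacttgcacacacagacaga
Each of the 3 windows held 4 matches to TGACG over both strands. Of all 32851 windows of the same length, 17.8% held at least 1 match and 0.137% held 4 or more. The windows were rich in G and C, at 74.4% for Nr4a1, 80.0% for Nr4a2 and 63.6% for Nr4a3, and the motif holds a CG step. Among the 9178 windows with at least 60% G and C, 0.37% held 4 or more. The full palindromic form TGACGTCA was in none of the 3 windows, against 1.55% of all windows. In Nr4a1 the matches lay at -233, -213, -69 and -40 from the start, in Nr4a2 at -200, -144, -123 and -111, and in Nr4a3 at -231, -213, -205 and -147, counted at the first base of each.

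Egr2, which moved the other way, has 5 annotated starts in the RefSeq table, and 3 of their windows overlap around the same elements. Of the other windows, the one at chr10:67537316-67537565 held 3 NFAT cores and a CArG box but no CRE form, and the one at chr10:67535249-67535498 held none of the motifs searched. The stretch at chr10:67537794-67537823 on the plus strand holds a CArG box, the element SRF binds, and a short CRE form, both in capitals.
Egr2: agtCCATATATGGgcagcgaCGTCAcgggt
A CArG box was in 1.47% of all windows. The first of these 3 overlapping windows held 2 short CRE forms and 1 CArG box. At least 2 short CRE forms were in 3.9% of all windows. None of the 3 Nr4a windows held a CArG box. The AP-1 site TGANTCA (6.75% of all windows) and AAAGGTCA (1.34%), the site that NR4A proteins bind as single molecules, were in none of the Egr2 and Nr4a windows. The NFAT core GGAAA, found in 55.6% of all windows, had 1 match for Nr4a2, 1 in this Egr2 window and none for Nr4a1 or Nr4a3. An EGR site, GCGTGGGCG or GCGGGGGCG on either strand, was in 3.06% of all windows in 9.47% of those with at least 60% G and C, and in that of Nr4a1, at -60. These matches describe letters and were not tested as binding sites.

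**Figure D4:**
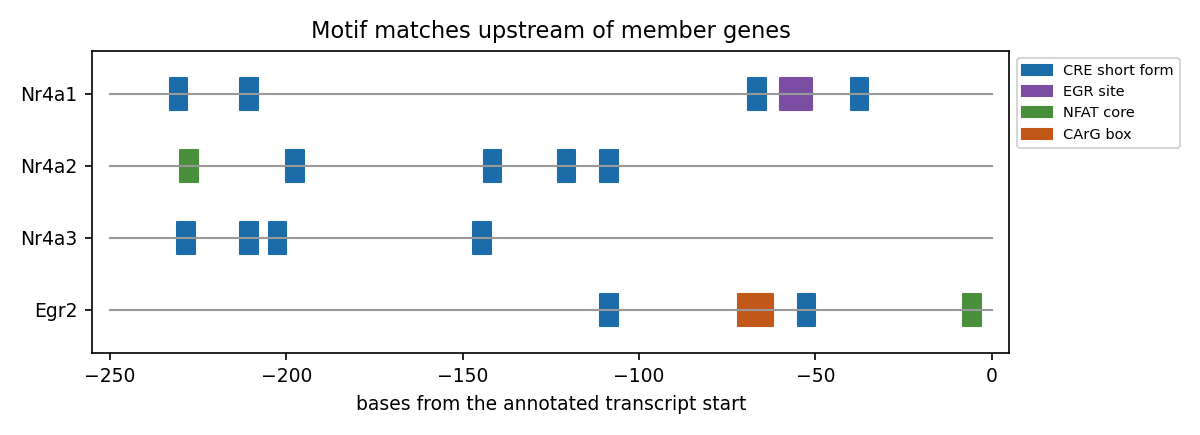
Matches to 4 motifs in the 250 bases upstream of an annotated transcript start (horizontal axis, bases from the start) for Nr4a1, Nr4a2, Nr4a3 and 1 Egr2 start. Each Nr4a window holds 4 short CRE matches, and the Egr2 window holds 2 beside a CArG box.

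Other early response genes mostly had lower signals in Tc9 cells. Of 33 genes of this kind, listed with earlier results of these data known, 31 were detectable. Their shares are therefore a description. Past 2-fold, 7 were lower (22.6%) and 1 was higher (3.23%), beside 2.79% and 2.62% of all detectable genes, with a median difference of -0.29, beside 0.05 over all detectable genes. Cd69, an early activation antigen, had log2 signals of 9.59 on the Tc9 array and 12.09 on the Tc1 array. Atf3, a stress-induced factor, had 8.38 on the Tc9 array and 9.90 on the Tc1 array, and Jun, an AP-1 subunit, had 8.38 and 9.63 in the same order. Nfkbiz, an atypical IκB protein, had 7.54 on the Tc9 array and 8.69 on the Tc1 array. The other 3 lower genes were Rgs1, Klf6 and Gadd45b, 2.13-fold to 2.17-fold lower. Plk3, a stress-response kinase, was the gene past 2-fold in the direction of Egr2, 2.11-fold higher, at 9.33 on the Tc9 array and 8.25 on the Tc1 array. Fos, another AP-1 subunit, had 7.92 on the Tc9 array and 7.60 on the Tc1 array, and Myc, a growth regulator, had 12.89 and 13.19 in that order.

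Surface and cytokine genes induced by the T cell receptor had a median difference of -0.74 over 15 detectable of 18 genes. This list too was written with earlier results of these data known, and it shares Cd69 with the early response genes. Past 2-fold, 5 of the 15 (33.3%) were lower on the Tc9 array and none was higher, beside 2.79% and 2.62% of all detectable genes. Beside Cd69 and Ifng they were Ccl3, a chemokine (4.91-fold lower), and Cd5 and Cd6, related scavenger-type receptors that tune receptor signalling (3.15-fold and 3.11-fold lower). Irf4, whose level is graded by receptor signal strength, had 11.66 on the Tc9 array and 11.63 on the Tc1 array. Tnfrsf9, the costimulatory receptor 4-1BB, had 12.30 and 12.86 in the same order, and Il2ra, the IL-2 receptor alpha chain, 11.14 and 10.78.

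Genes of the signalling steps above Egr and Nr4a were read against the 5.41% of all detectable genes past 2-fold, a share at which lists of this size give few or none. Of 14 measured calcium and NFAT genes none passed the limit, with differences from -0.63 to 0.50 and a median of 0.07. Nfatc1 and Nfatc2, which encode NFAT factors, differed by 0.0068 and 0.41. Of 14 measured ERK and SRF genes none passed it either, with a range of -0.32 to 0.78 and a median of 0.23. Elk3, an SRF partner, had the highest of these at 0.78, and Srf itself differed by 0.23.

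**Figure D5:**
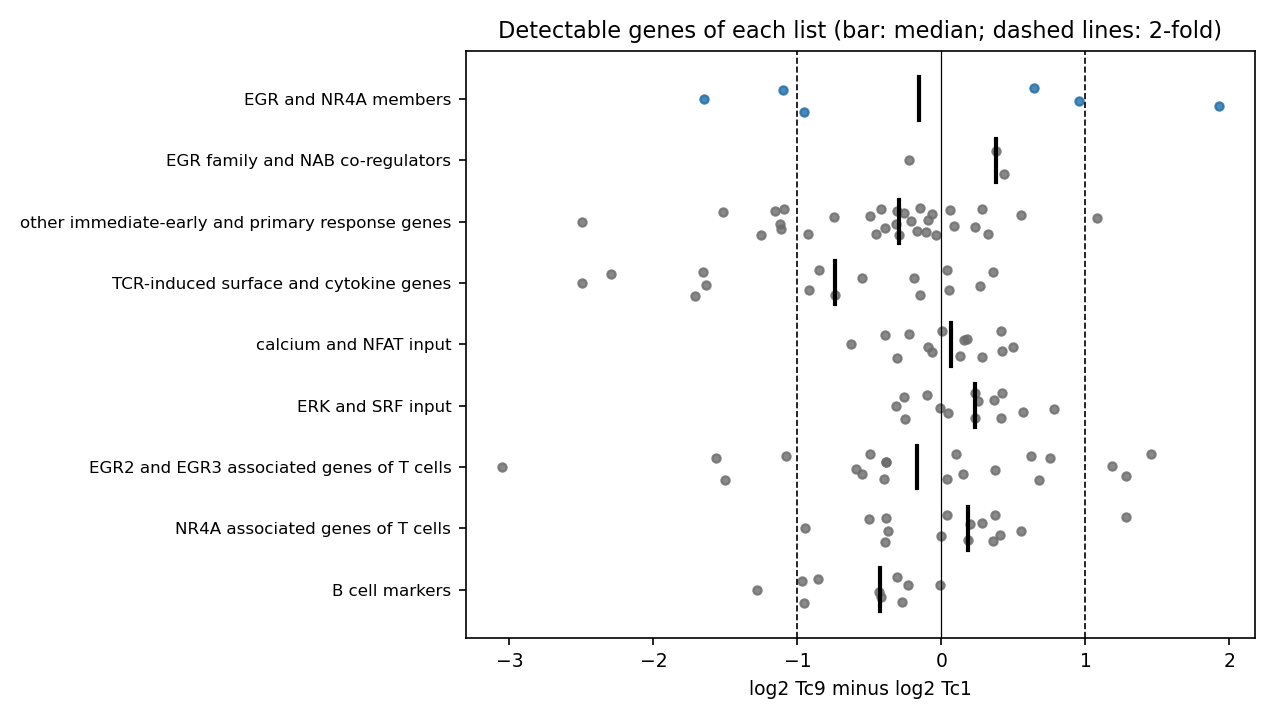
Log2 Tc9 minus log2 Tc1 (horizontal axis) of the detectable genes of 9 lists, 1 point per gene, with the list median as a bar and 2-fold as dashed lines. The Egr and Nr4a members split to either side, the early response and receptor-induced genes lie mostly left of 0, and the calcium and ERK genes lie inside the 2-fold lines.

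Genes linked to EGR2 and EGR3 in T cells went both ways. They, and the NR4A-linked genes below, were listed with earlier results of these data known, so their shares are a description. Among 20 detectable genes, 3 passed 2-fold upward and 4 downward by measured values, 15.0% and 20.0%, beside 2.62% and 2.79% of all detectable genes. The median was -0.17, and 0.04 over the genes that reached the negative control level of 7.16. The higher ones were Nrgn, a calmodulin-binding protein gene (2.75-fold), Batf, an AP-1 family factor (2.43-fold), and Id2, an inhibitor of helix-loop-helix factors (2.27-fold). The lower ones were Tbx21 (8.30-fold), the death ligand gene Fasl (2.84-fold), Cblb, a ubiquitin ligase linked to anergy (2.11-fold), and Sema7a, a semaphorin. Sema7a was below the threshold on the Tc9 array, so only a bound of at least 1.30-fold holds for it. The other 3 lower genes were above the threshold on both arrays. Of these, Tbx21 (6.50) and Fasl (6.56) were under the negative control level of 7.16 on the Tc9 array. Their folds are thus ratios to a signal in the range of background. Rnf128, the anergy ligase GRAIL, was below the threshold on both arrays. Cblb thus differed in the direction opposite to Egr2. Of 15 detectable genes linked to NR4A factors, Batf alone passed 2-fold, a share of 6.67% near the 5.41% of all detectable genes, and the median was 0.18. Tox, a factor of exhausted T cells, had 9.95 on the Tc9 array and 10.33 on the Tc1 array, and Pdcd1, which encodes PD-1, had 9.28 and 9.67 in that order.

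For each member past 2-fold, the 3 genes with the nearest pair of log2 signals on the 2 arrays were found among 9865 detectable genes, after leaving out the member itself and predicted, microRNA and receptor segment genes. A signal also depends on the probes, so nearness here does not compare transcript amounts. For Egr2 they were Penk (distance 0.35 on the log2 scale), Izumo1r (0.38) and Ccr4 (0.44). For Nr4a2 they were Crim1 (0.04), Phf11b (0.07) and Cd6 (0.09). For Nr4a3 they were Cblb (0.02), Bhlhe40 (0.20) and H2-K1 (0.39). Bhlhe40 and H2-K1 did not pass 2-fold, with Tc9 minus Tc1 differences of -0.88 and -0.56.

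Markers of other cells were also measured, since B cells and myeloid cells express Egr and Nr4a genes after stimulation. All 10 measured B cell markers were detectable and lower on the Tc9 array, as were 43.7% of all detectable genes. Their median measured difference was -0.43. Blk and Fcrla were below the threshold on the Tc9 array, at 5.95 and 5.52, so their differences are bounds. On the Tc1 array, at 6.90 and 6.80, both were under the negative control level of 7.16. Ms4a1 (7.10) and Blnk (6.92) were under that level on the Tc9 array. The 8 markers other than Blk and Fcrla ranged from -0.97 to -0.01, except that Ebf1 turned after centring on the gene or all-probe median. The summed intensity of the 10 was 3569 on the Tc9 array and 5072 on the Tc1 array, and none was listed at 0. Cd79a, a B cell receptor chain, had log2 signals of 9.68 on the Tc9 array and 10.65 on the Tc1 array. Of 8 measured monocyte and macrophage markers 3 were detectable, Lyz2, Fcgr3 and Itgam. None of these passed 2-fold, beside 5.41% of all detectable genes, a share at which 3 genes give few or none. Lyz2 was higher on the Tc9 array, with an intensity of 443 against 329 on the Tc1 array. Fcgr3 (186 on Tc9, 341 on Tc1) and Itgam (99.9 on Tc9, 114 on Tc1) were lower. The summed intensity over all 8 markers, of which 5 were below the threshold on both arrays, was 954 on the Tc9 array and 978 on the Tc1 array. Opposite differences offset each other in that sum. Of the genes that IL-4 induces in macrophages, 4 had higher signals on the Tc9 array. They were named here after their values were seen and do not stand for the whole class. Chil3, a chitinase-like gene, had 9.63 on the Tc9 array and 3.93 on the Tc1 array, Ccl24, an eotaxin, had 9.02 and 5.77 in that order, and Arg1, an arginase, had 7.65 and 5.02. Chil4, another chitinase-like gene, had 7.49 on the Tc9 array and 3.65 on the Tc1 array, and all 4 were below the threshold on the Tc1 array. The part of B cells or myeloid cells in the differences of Egr and Nr4a genes was not tested.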

How the data were processed

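Total RNA was biotin labelled for whole-transcript Affymetrix arrays, per the labels' protocols. The authors deposited linear probe set intensity values. How they summarized, background corrected and normalized the probes is not stated in these sources. Values ran from 4.87 to 13045 on the Tc9 array and from 5.12 to 14977 on the Tc1 array, with medians of 53.1 and 57.2 in that order, and were taken as already normalized, which is inferred. The design called for log2 without further normalization in that case, and log2 of the deposited values was used.

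Of 28846 probe sets, 19572 had exactly 1 gene symbol and stood for genes, and the other 9274 did not. All Entrez numbers matched the RefSeq gene table. Where a gene had several probe sets (55 genes), the brighter by mean log2 signal stood for the gene in counts, and every Egr3 probe set is given. Differences are log2 Tc9 minus log2 Tc1. A 2-fold size rule describes 2 arrays, and their number limits the precision. Where 1 array was below the threshold, the fold is a bound against it ("at least"). Medians over lists cover detectable genes at their measured values.

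The members and lists were chosen with earlier results of these data known. Named were all members, the 3 nearest genes of each member past 2-fold, list genes past 2-fold by size and all identity genes. Other list genes with values, such as Fos, Myc, Plk3, Rgs1, Klf6, Gadd45b, Irf4, Tnfrsf9, Il2ra, Nfatc1, Nfatc2, Elk3, Srf, Tox, Pdcd1, Batf, Id2 and Cblb, were chosen after their values were seen. Counting was tested on simulated data. Python 3.11.15, numpy 2.4.6 and pandas 2.3.3 were used. Alternatives changed the scaling, an offset of 32, the threshold, dim values, the 2-fold rule and the use of probe sets. Promoter sequence was matched for 4 of 6 members. Egr1 and Egr3 are named only.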

Additional observations from a re-analysis of the deposited data

How the results depend on the processing

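The direction of all 6 genes held under the alternatives that gave their differences, which leaves out the 1.5-fold rule for all and the mean of probe sets for all but Egr3. Centring, the offset, the threshold and dim-value settings could not have turned a gene here, so for these the held direction is no check. Egr2 and Nr4a2 stayed past 2-fold in each alternative that used the 2-fold rule. Centring on the gene median put Egr3 (gene and NM_001289925 probe set) at 1.03 and raised the members at least 2-fold higher to 2. Centring on all probe sets, an alternative chosen after seeing the data, put them at 1.07 and Nr4a3 at -0.99, which gave 2 members higher and 1 lower. The NM_001289927 probe set of Egr3 was at 0.043 and 0.083 under these centrings. Nr4a1 reached -1.01 after quantile normalization and -1.10 after centring on positive controls. With 1.5-fold in place of 2-fold, 791 detectable genes were higher and 688 lower, against 266 and 283, and 3 members were higher. The median of the receptor-induced surface and cytokine genes became -0.37 once dim values were raised to the threshold, dim members included. The other list medians moved by less than 0.33, the robust spread of all detectable differences, and that of the genes linked to EGR2 and EGR3 was 0.04 at the negative control threshold and 0 with dim values raised. Offsets left fewer genes past 2-fold, 186 higher and 212 lower. No paired analysis was possible because each group has 1 array. Background probe signal, not read depth, limits dim genes, and among the 585 negative controls at or above the threshold 16.2% passed 2-fold. Of those that passed, 73 were lower on the Tc9 array and 22 were higher.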
